A study of Mus musculus with 12 samples.

Results

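The nuclear genes of respiratory complexes II, III, IV and V and of cytochrome c were compared between livers of mice that lack or carry SIRT4, one of the sirtuins found in mitochondria. The 37 genes were chosen by a fixed list of mouse symbols, without use of their measured values in the rule: 4 for complex II, 7 for complex III, cytochrome c itself, 11 for complex IV and 14 for complex V. A probe set was assigned to a gene by the gene number on its own row, and the one with the highest mean over the 12 arrays stood for the gene. This gave 36 genes of the 18023 on the arrays that were tested, with 10 for complex IV, because Cox7b matched no probe set and is not analysed here.

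The 12 samples were livers of 6 SIRT4 knockout (Sirt4 KO) and 6 wild-type (WT) mice, each on 1 Affymetrix Mouse Genome 430 2.0 array, which reads a gene with 1 or more sets of short probes. All 12 were untreated males of strain 129SV, littermates aged 7 to 8 months, killed after a 16-h overnight fast. The labels do not say how the Sirt4 allele was made or whether every cell type lacks it. Animals are numbered 1 to 6 within a genotype in record order, which pairs no animals. Intensity is the authors' linear array signal, and fold changes are KO minus WT on the scale of log2(intensity + 50), tested with limma and adjusted by Benjamini-Hochberg over all 18023 genes. The number of animals limits the precision.

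Complexes II to IV and cytochrome c form the part of the respiratory chain that takes electrons from succinate and from ubiquinol to oxygen, and complex V, the ATP synthase, uses the proton gradient that the chain builds to make ATP. Complex II is wholly encoded in the nucleus and also works in the tricarboxylic acid cycle, while complexes III, IV and V each join nuclear subunits with subunits made from mitochondrial DNA, which are not analysed here. The liver depends on this chain in fasting, when fat oxidation feeds it and gluconeogenesis and urea synthesis draw on its ATP. Many nuclear genes of the chain are known to be driven by the transcription factor NRF1 and by GABP, a factor of the ETS family.

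The promoter letters that these factors are known to read are shown for 1 gene of each complex and for cytochrome c, to show where on the gene they stand. The sequences are from RefSeq (GRCm38.p6), run 5′ to 3′ over the 250 bases before the start of the gene, and have in capitals the letters GCGCATG (core of the NRF1 motif) or CCGGAAG (ETS), on either strand. Sdhb and Cycs each hold the NRF1 core, Uqcrh the ETS letters, Cox6a1 an NRF1 core on both strands, which overlap in a palindrome, and an ETS match, and Atp5k the NRF1 palindrome.
Sdhb, chr4:140961021-140961270, plus strand: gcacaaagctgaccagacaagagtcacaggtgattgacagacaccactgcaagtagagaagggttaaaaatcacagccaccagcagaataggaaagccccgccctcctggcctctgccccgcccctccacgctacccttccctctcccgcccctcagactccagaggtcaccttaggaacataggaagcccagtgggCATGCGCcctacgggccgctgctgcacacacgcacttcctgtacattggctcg
Uqcrh, chr4:116075071-116075320, minus strand: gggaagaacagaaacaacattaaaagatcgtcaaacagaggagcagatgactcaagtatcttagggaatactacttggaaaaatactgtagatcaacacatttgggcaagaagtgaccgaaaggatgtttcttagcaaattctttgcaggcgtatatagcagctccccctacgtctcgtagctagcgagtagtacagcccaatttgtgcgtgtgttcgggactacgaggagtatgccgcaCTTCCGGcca
Cycs, chr6:50566570-50566819, minus strand: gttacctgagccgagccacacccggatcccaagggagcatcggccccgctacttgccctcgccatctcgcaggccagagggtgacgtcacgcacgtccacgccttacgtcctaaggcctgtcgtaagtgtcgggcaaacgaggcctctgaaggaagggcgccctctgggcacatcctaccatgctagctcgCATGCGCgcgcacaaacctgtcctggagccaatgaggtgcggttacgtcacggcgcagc
Cox6a1, chr5:115348959-115349208, minus strand: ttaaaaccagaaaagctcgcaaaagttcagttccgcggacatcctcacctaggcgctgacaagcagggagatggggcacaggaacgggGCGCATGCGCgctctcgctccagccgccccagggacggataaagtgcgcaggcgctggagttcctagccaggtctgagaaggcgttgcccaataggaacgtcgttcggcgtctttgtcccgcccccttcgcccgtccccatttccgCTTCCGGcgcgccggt
Atp5k, chr5:108434400-108434649, minus strand: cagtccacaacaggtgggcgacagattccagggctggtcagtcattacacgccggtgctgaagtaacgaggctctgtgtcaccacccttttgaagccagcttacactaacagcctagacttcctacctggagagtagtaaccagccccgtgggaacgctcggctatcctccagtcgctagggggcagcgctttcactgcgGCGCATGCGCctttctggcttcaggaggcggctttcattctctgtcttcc

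A RefSeq promoter window of 300 bases, 250 before and 50 after the start, was matched for 28 of the 36 measured genes. The NRF1 core stood in 7 of these 28 windows (25.0%), in Sdhb, Uqcrc1, Cycs, Cox5b, Cox6a1, Atp5k and Atp5l, against 4.41% of all 27025 genes with a window. The ETS letters stood in 11 of 28 (39.3%), in Sdhb, Sdhd, Uqcrh, Cox6a1, Cox6b1, Cox8a, Atp5e, Atp5h, Atp5j, Atp5k and Atp5l, against 9.93% of all genes. Both were present in Sdhb, Cox6a1, Atp5k and Atp5l (14.3%, against 0.829%). In Sdhb the core lay 53 bases before the start, in Cycs 59 and in Cox5b 51. These are matches of letters and no measure of binding, and a window without one says nothing about the factor. The NRF1 core of Uqcrc1 and the ETS letters of Sdhb, Cox8a and Atp5k reached past the start and are not in the printed stretches.

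Sirt4 itself, Entrez gene 75387, averaged 104 ± 16.4 in Sirt4 KO livers and 172 ± 14.5 in WT livers (intensity, SD, n = 6 each), with no overlap (log2 fold change -0.53, limma adjusted p = 0.0359). The call was lost in 14 of 24 alternative fits, and the labels do not say whether its probe set lies in the deleted part. Array medians ran from 36.6 to 38.69. All 10 hepatocyte markers were above the array median intensity, while 4 of 7 muscle and 5 of 6 fat cell markers were below it. Title numbers form a 7200 series (5 KO, 2 WT) and a 7500 series (1 KO, 4 WT), and 3 KO titles end in -2; the labels do not say what either means. In these bulk samples a lower level can come from fewer cells of a type or from less RNA per cell, which cannot be told apart.

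No subunit gene of complexes II to V was called different between the genotypes by limma, which does not show that the levels were equal. With limma 0 of 36 passed an adjusted p of 0.05, where 0.00555% of all genes did. Likewise 0 of 36 had an unadjusted p under 0.05, where 6.29% of all genes did (3.13% higher in KO and 3.15% lower). Among the bright genes 6.64% did. Bright genes are the 1114 with a mean intensity at or above that of the dimmest of the 36 (1762, Sdhc), a floor that does not match genes by brightness. Genotypes overlapped for all 36, where 0.244% of all genes did not overlap. Mean intensity in Sirt4 KO livers lay between 96.0% (Cox5a) and 107% (Sdha) of that in WT livers. Each 95% interval of a fold change holds for 1 gene, on its chosen probe set and in the main fit. The highest upper bound was 15.3% above WT, for Sdha, and the lowest lower bound 11.0% below WT, for Sdhc. Both are on the scale with the offset, and the 36 intervals give no joint bound. The second probe set of Sdhc gave a log2 fold change of -0.071 with a standard error of 0.086. Standard errors of the log2 fold changes ran from 0.039 to 0.068, with a median of 0.044. The median was 0.064 over all genes and 0.053 over the bright genes.

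**Figure D1:**
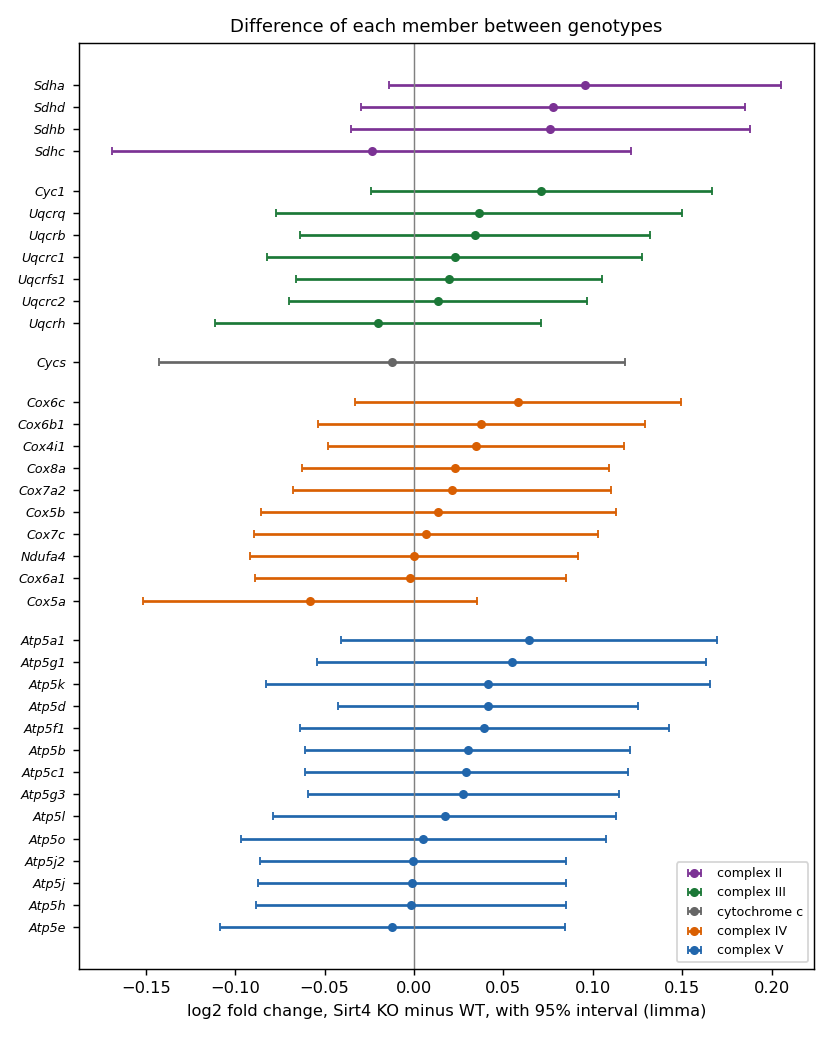
Log2 fold change, Sirt4 KO minus WT, of the 36 measured genes on the scale of log2(intensity + 50), with 95% intervals from limma (n = 6 each), grouped by complex. Every interval spans 0, from -0.17 at its lowest (Sdhc) to 0.21 at its highest (Sdha).

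Of the 36 genes 27 had a log2 fold change above 0, with a median of 0.023. Over all genes 50.4% were above 0 with a median of 0.00060, and among the 1114 genes at least as bright as the dimmest of the 36 (mean intensity 1762, Sdhc) 61.2% were above 0 with a median of 0.016. By complex the medians were 0.077 for complex II (3 of 4 above 0), 0.023 for complex III (6 of 7), 0.017 for complex IV (8 of 10) and 0.028 for complex V (10 of 14), and Cycs gave -0.012. These values moved with scaling, with the animals and with the choice of probe set. After quantile normalization 20 of 36 were above 0 (median 0.0088), and with arrays centred on their medians 31 were (0.031). Without WT replicate 5 the count was 25 and the median 0.011, and without WT replicate 3 the count was 22 and the median 0.020. Without WT replicate 5 the medians were 0.0100 for complex III, 0.0034 for complex IV and 0.013 for complex V, and without WT replicate 3 that of complex IV was 0.00074. Leaving out other animals moved a median by over 1.5 times for complex III (0.039, 0.036 and 0.035 without WT replicate 2, WT replicate 4 or KO replicate 6), complex IV (0.029 without WT replicate 2) and complex V (0.017 without KO replicate 5). The second brightest probe set gave 0.028 for complex II, 0.0055 for complex IV and 0.011 for complex V. For complexes IV and V these include dim probe sets of Cox7c, Atp5c1 and Atp5g1 (mean intensity 47, 42.6 and 9.3).

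Complex II, succinate dehydrogenase, had the 3 largest fold changes of the 36. Sdha (Entrez 66945), the flavoprotein subunit that oxidises succinate, had 3805, 3934 and 4013 in Sirt4 KO livers, against 3414, 3616 and 4154 in WT livers (lowest, median and highest intensity of 6 animals, as in all that follow). In all, 5 WT animals lay below every KO animal and WT replicate 3 lay above them all, so that 1 animal made the groups overlap. The log2 fold change was 0.096 (95% interval -0.014 to 0.21, limma adjusted p = 0.809). Without WT replicate 3 it was 0.13, with an unadjusted p of 0.0118 and a limma adjusted p of 0.724. Without WT replicates 5 and 6 it was 0.048, and with the mean of all its probe sets 0.043. Its second probe set gave 0.050, and another, close to background, -0.016.

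Sdhd (Entrez 66925), one of the membrane anchors that hold haem and ubiquinone, had 2648, 2884 and 3125 in Sirt4 KO livers, against 2564, 2696 and 2922 in WT livers. The KO animals reached higher and the groups overlapped over most of their range, with a log2 fold change of 0.078 (95% interval -0.029 to 0.19, limma adjusted p = 0.852), and 0.0056 from the other probe set. Sdhb (Entrez 67680), the iron-sulphur subunit that passes electrons on, had 4625, 4751 and 5154 in Sirt4 KO livers, against 4241, 4475 and 4951 in WT livers, a log2 fold change of 0.076. KO replicate 5 was the highest of the 12 animals for both Sdhb and Sdhd, and WT replicate 5 the lowest. Sdhc (Entrez 66052), the other anchor and the gene of complex II nearest 0, had 1412, 1802 and 1891 in Sirt4 KO livers, against 1655, 1769.9 and 1895 in WT livers. Here KO replicate 6 stood below all other animals, and the log2 fold change was -0.024 (95% interval -0.17 to 0.12, limma adjusted p = 0.978). It turned to 0.047 without the 3 KO arrays whose titles end in -2, of which replicate 6 is one.

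Complex III passes electrons from ubiquinol to cytochrome c, and its 7 genes differed little. Cyc1 (Entrez 66445), cytochrome c1, which hands the electron over, had 4339, 4551 and 4629 in Sirt4 KO livers, against 3891, 4365 and 4424 in WT livers. Of the KO animals 4 lay above every WT animal, and WT replicate 5 lay far below the rest. The log2 fold change was 0.071 (95% interval -0.024 to 0.17, limma adjusted p = 0.852). Exact two-sided permutation of the 12 animals gave Cyc1 an unadjusted p of 0.0260 (adjusted p = 0.783 over all genes). With this test Cyc1 was the only one of 36 under 0.05, where 6.18% of all genes and 10.1% of the bright genes were. Without WT replicate 5 its log2 fold change was 0.043.

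Uqcrb (Entrez 67530), a small subunit beside the ubiquinone site, had 11284, 11686 and 11961 in Sirt4 KO livers, against 10846, 11319 and 12479.9 in WT livers, with a log2 fold change of 0.034. Uqcrq (Entrez 22272), another small subunit, had 4687, 4732 and 4832 in Sirt4 KO livers, against 3982, 4729.6 and 4996 in WT livers. The 6 KO animals lay close together, while WT animals reached above and below them, WT replicate 3 lowest. The log2 fold change was 0.036, and -0.044 from the second probe set, a dim one (mean intensity 193). Uqcrc2 (Entrez 67003), a core protein and the gene of complex III nearest 0, had 5559, 5692 and 5835 in Sirt4 KO livers, against 5408, 5683 and 5805 in WT livers, a log2 fold change of 0.013 (95% interval -0.070 to 0.097). The other core protein Uqcrc1 gave 0.023, the Rieske iron-sulphur protein Uqcrfs1 0.020 and the hinge protein Uqcrh -0.020, the only gene of the complex below 0. Limma adjusted p-values of the 7 ran from 0.852 to 0.978.

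Cycs (Entrez 13063), cytochrome c, the soluble carrier between complexes III and IV, had 1904, 1950.5 and 2216 in Sirt4 KO livers, against 1766, 2036 and 2277 in WT livers. WT animals held both the highest (replicate 3) and the lowest (replicate 6) value, and the log2 fold change was -0.012 (95% interval -0.14 to 0.12, limma adjusted p = 0.990). Without WT replicates 5 and 6 it was -0.078, and without WT replicate 3 it was 0.022. Processed copies of Cycs are known in rodent genomes, so signal on its probes may not all come from this gene.

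Complex IV, cytochrome c oxidase, reduces oxygen to water, and it held the gene with the lowest fold change of the 36. Cox5a (Entrez 12858), a matrix-side subunit, had 6999, 7245.2 and 7583.4 in Sirt4 KO livers, against 7104, 7549.8 and 8048 in WT livers. Of the WT animals 3 lay above every KO animal and 2 KO animals lay below every WT animal; the log2 fold change was -0.058 (95% interval -0.15 to 0.035, limma adjusted p = 0.870). Its other probe sets disagreed with each other: the second gave 0.048, and the third gave -0.068, with the sign of the chosen one. Cox6c (Entrez 12864), a small membrane subunit, had 5878, 6030.1 and 6185 in Sirt4 KO livers, against 5455, 5807 and 6089 in WT livers. The log2 fold change was 0.058 (95% interval -0.033 to 0.15, limma adjusted p = 0.868), with -0.032 from its second probe set.

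Cox4i1 (Entrez 12857), the usual isoform of the subunit through which ATP is known to regulate the enzyme, had 8619.8, 8652 and 8937 in Sirt4 KO livers, against 8179, 8529 and 8713 in WT livers. Here 4 WT animals lay below every KO animal, and the log2 fold change was 0.035 (95% interval -0.048 to 0.12, limma adjusted p = 0.923). Cox6b1 (Entrez 110323), a subunit facing the intermembrane space, had 6855, 7013 and 7145 in Sirt4 KO livers, against 6455, 6734 and 7279 in WT livers, a log2 fold change of 0.038 that its second probe set matched with 0.048. Ndufa4 (Entrez 17992), first assigned to complex I and later found in complex IV, was nearest 0 and had 5469.9, 5581 and 5762 in Sirt4 KO livers, against 5323, 5546 and 6009 in WT livers. Its KO animals lay within the WT range, with a log2 fold change of 5.1e-05 (95% interval -0.092 to 0.092). Among the other 5, Cox8a gave 0.023, Cox7a2, the isoform of liver, 0.021, Cox5b, which holds a zinc ion, 0.014, Cox7c 0.0066 and Cox6a1, also the liver isoform, -0.0020. Adjusted p-values of the 10 genes (limma) ran from 0.868 upward.

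Complex V joins a catalytic head to a membrane rotor through a central and a peripheral stalk. In the head, Atp5a1 (Entrez 11946), the alpha subunit, had 5933, 6085 and 6597 in Sirt4 KO livers, against 5399, 5946 and 6318 in WT livers. KO replicate 5 was the highest animal and WT replicate 5 the lowest, and the log2 fold change was 0.064 (95% interval -0.041 to 0.17, limma adjusted p = 0.874). Its other probe sets gave 0.0024 and -0.10, the latter from a dim probe set (mean intensity 208). Atp5b, the beta subunit that holds the catalytic sites, gave 0.030, with the same 2 animals at the ends.

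In the central stalk, Atp5d (Entrez 66043), the delta subunit, had 5271, 5367 and 5537 in Sirt4 KO livers, against 5091, 5204 and 5427 in WT livers. Of the WT animals 4 lay below every KO animal, and the log2 fold change was 0.041 (95% interval -0.043 to 0.13, limma adjusted p = 0.908), with an unadjusted exact permutation p of 0.0541. The gamma subunit Atp5c1 gave 0.029 and the epsilon subunit Atp5e -0.012, the lowest of complex V. The rotor ring of subunit c was read on 2 of its genes, which encode the same mature protein. Atp5g1 (Entrez 11951) had 2459.6, 2589 and 2709 in Sirt4 KO livers, against 2262, 2556 and 2643 in WT livers, with a log2 fold change of 0.055 (95% interval -0.054 to 0.16, limma adjusted p = 0.908), and WT replicates 3 and 5 below every KO animal. Atp5g3 gave 0.028.

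In the peripheral stalk, Atp5f1 (Entrez 11950), subunit b, had 7075, 7358 and 7717 in Sirt4 KO livers, against 6635, 7205 and 7738 in WT livers. The KO animals lay within the WT range, with a log2 fold change of 0.039 (95% interval -0.064 to 0.14, limma adjusted p = 0.936), and 0.036 from the other probe set. Atp5h, subunit d, gave -0.0019, Atp5j, coupling factor 6, -0.0011 and Atp5o, the oligomycin sensitivity protein that joins the stalk to the head, 0.0053. Among the membrane subunits e, f and g, Atp5k (Entrez 11958), subunit e, had 3301, 3360.2 and 3463 in Sirt4 KO livers, against 2774, 3354 and 3608 in WT livers. WT animals reached both above and below the 6 KO animals, and the log2 fold change was 0.041 (95% interval -0.083 to 0.17, limma adjusted p = 0.945). Atp5j2 (Entrez 57423), subunit f and the gene of complex V nearest 0, had 6035, 6233 and 6425 in Sirt4 KO livers, against 6022, 6226 and 6485 in WT livers, a log2 fold change of -0.00060 (95% interval -0.086 to 0.085). Atp5l, subunit g, gave 0.017.

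**Figure D2:**
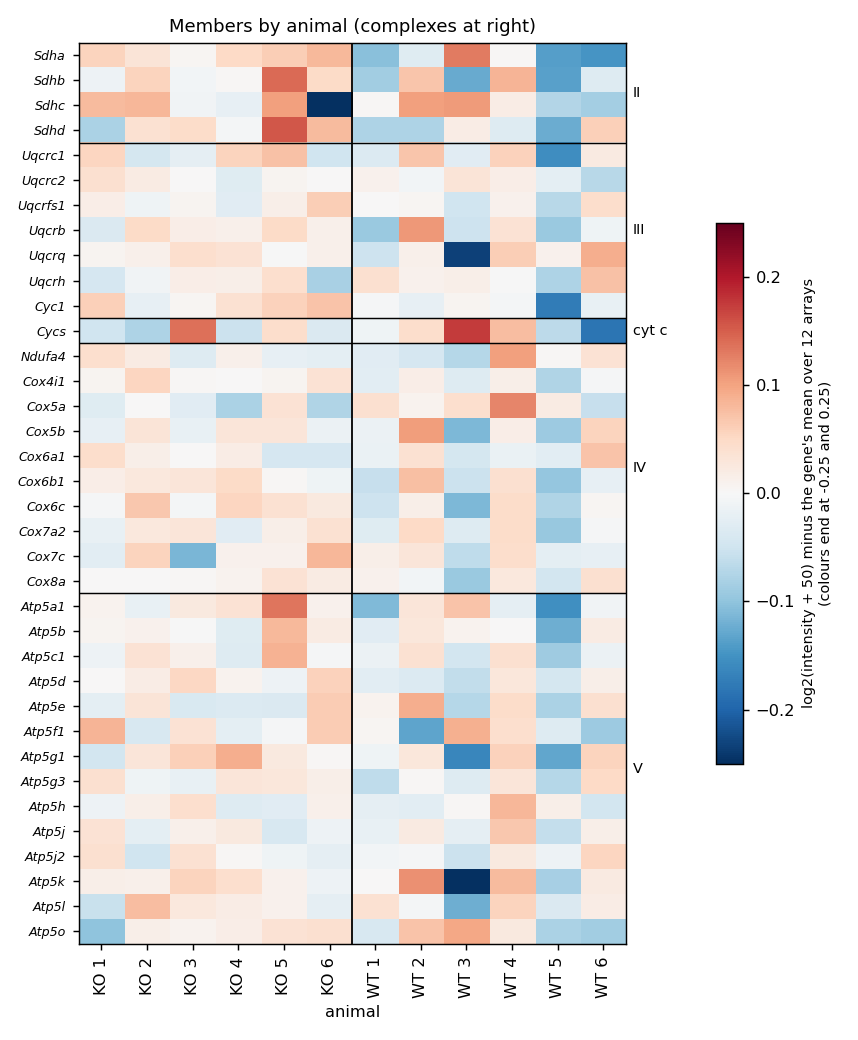
The 36 genes (rows, by complex) in the 6 Sirt4 KO and 6 WT animals (columns); colour is log2(intensity + 50) minus the gene's mean over the 12 arrays, red above and blue below. The KO columns are mostly pale, with Sdhc in KO replicate 6 a deep blue exception, while WT replicates 3 and 5 hold the lowest value of 11 and 14 genes.

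WT animals spanned a wider range than Sirt4 KO animals. The 7200 series of titles held 5 KO and 2 WT animals and the 7500 series 1 KO and 4 WT. Spread by genotype therefore cannot be told apart from title series. Averaged over the 36 genes, centred log2 values were 0.0024, 0.015, 0.012, 0.0073, 0.032 and 0.0040 in KO replicates 1 to 6, against -0.024, 0.022, -0.032, 0.037, -0.072 and -0.0032 in WT replicates 1 to 6. The KO animals all lay inside the WT range, and the mean was 0.012 ± 0.011 in KO and -0.012 ± 0.040 in WT (SD, n = 6 each). Over the bright genes the same average was 0.018, 0.0038, -0.0052, 0.033, -0.0072 and 0.023 in KO replicates 1 to 6. In WT replicates 1 to 6 it was -0.047, -0.0077, -0.0064, -0.020, 0.015 and 0.0014. From 20 to 27 of the 36 genes were above their own 12-array mean in each KO animal, against 4 in WT replicate 5, 11 in replicate 1, 13 in replicate 3, 19 in replicate 6, 25 in replicate 2 and 31 in replicate 4. Of the bright genes 47.6% to 65.0% were above their own mean in KO animals. In WT replicates 1 to 6 the share was 33.5%, 48.9%, 47.8%, 45.1%, 49.7% and 51.2%. The lowest of the 12 values was in a KO animal for 5 genes and in a WT animal for 31. Of the bright genes 70.2% had their lowest value in a WT animal. The highest was in a KO animal for 15 genes and in a WT animal for 21.

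WT replicate 5 held the lowest value of 14 genes: Sdhb, Sdhd, Uqcrc1, Uqcrfs1, Cyc1, Cox4i1, Cox6b1, Cox7a2, Atp5a1, Atp5b, Atp5c1, Atp5e, Atp5g3 and Atp5j. WT replicate 3 held the lowest value of 11, namely Uqcrq, Ndufa4, Cox5b, Cox6a1, Cox6c, Cox8a, Atp5d, Atp5g1, Atp5j2, Atp5k and Atp5l, and the highest value of 5, Sdha, Sdhc, Cycs, Atp5f1 and Atp5o. Among the 1114 bright genes WT replicate 5 held the lowest value of 12.1% and WT replicate 3 of 13.7%. Array medians on the deposited scale were at a common level, but those bright genes averaged from -0.047 (WT replicate 1) to 0.033 (KO replicate 4), as centred log2. They averaged 0.015 in WT replicate 5 and -0.0064 in WT replicate 3.

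The lowest WT mean was that of replicate 5 for complexes II, III and V and of replicate 3 for complex IV. For complex II the mean per animal ran from -0.024 to 0.12 in KO and from -0.12 (replicate 5) to 0.032 in WT, a difference of 0.057. For complex III it ran from -0.000575 to 0.034 in KO and from -0.083 (replicate 5) to 0.026 in WT, for complex IV from -0.013 to 0.030 in KO and from -0.057 (replicate 3) to 0.044 in WT, and for complex V from -0.0013 to 0.022 in KO and from -0.070 (replicate 5) to 0.040 in WT. Differences were 0.025, 0.013 and 0.024 for complexes III, IV and V. Without WT replicate 5 they were 0.011, 0.0048 and 0.012, and 0.039 for complex II. Within the 7200 series the differences were 0.064, 0.011, 0.00096 and 0.013 for complexes II to V, and within the 7500 series, with 1 KO animal, 0.0055, 0.025, 0.017 and 0.032.

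**Figure D3:**
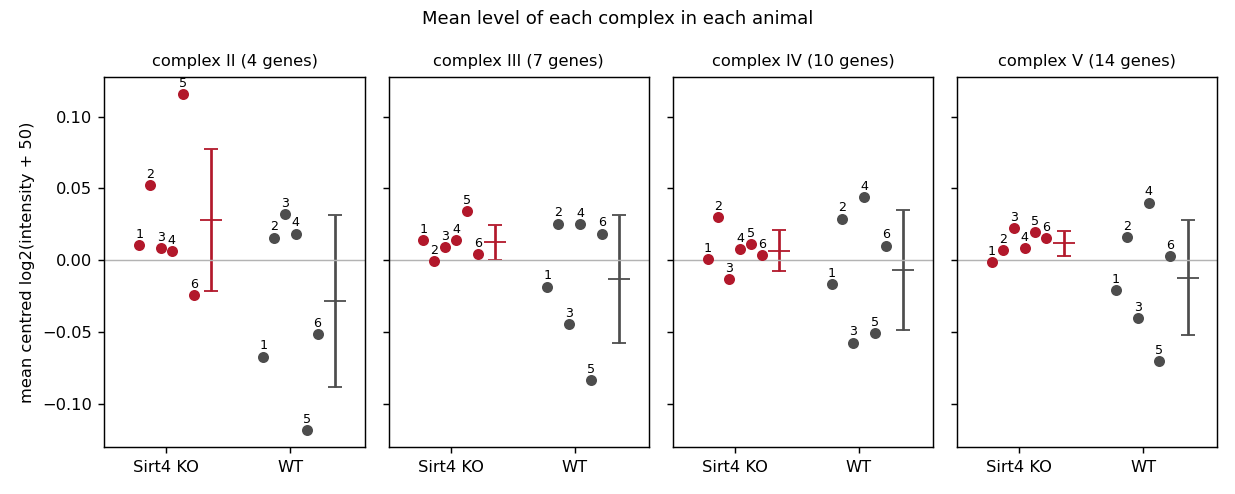
Mean of the centred log2 values over the genes of each complex in each animal, numbered by replicate, with the group mean and SD at the right of each group. KO animals lie inside the WT range for complexes IV and V, and the lowest WT animal is replicate 5 or replicate 3 in each panel.

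The spread of single genes followed the same pattern. The SD among animals was smaller in Sirt4 KO than in WT for 33 of 36 genes, the exceptions being Sdhc, Sdhd and Cox7c. Over all genes this held for 56.9%, and for 72% of the bright genes. The median SD on the log2 scale was 0.035 in KO and 0.063 in WT, against 0.069 in KO and 0.091 in WT over the bright genes. Without WT replicate 5 the count was 28, and without WT replicates 3 and 5 it was 22 with a WT median of 0.045. These 2 animals were left out after their values were seen, the difference in spread was not tested, and the genes share the same 12 arrays. WT replicates 3 and 5 are in the 7500 series of titles, which holds only 1 KO animal.

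**Figure D4:**
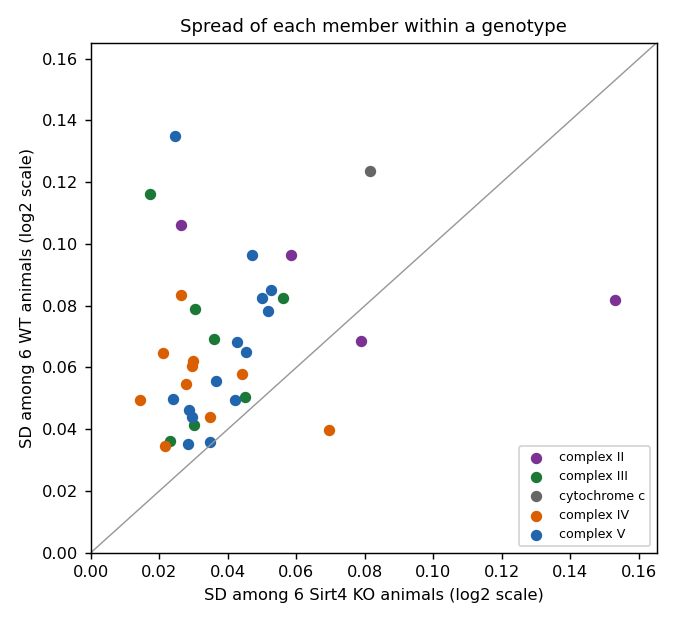
SD of log2(intensity + 50) among the 6 Sirt4 KO animals (x) and the 6 WT animals (y) for each of the 36 genes, coloured by complex; the line marks equal SDs. All but 3 points lie above the line, and Sdhc, with 1 low KO animal, lies farthest to the right.

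Markers of other cells and of inflammation also differed between animals. Of 15 measured Kupffer cell and macrophage markers 15 had a log2 fold change below 0 (summed intensity 4159 to 7398 in KO, against 4947 to 9691 in WT), 12 of them with an unadjusted p under 0.05 and 0 called by limma. Of 8 B cell markers 8 were below 0, and their sums did not overlap (361 to 444 in KO, 463 to 702 in WT), with Cd79a, Cd79b and Cd22 below the array median. Of 10 neutrophil markers 9 were below 0 (515 to 649.7 in KO, 497 to 1251 in WT), and Cxcr2 and Mmp8 lay below the array median. Of 12 acute phase genes 11 were below 0 (50884 to 76495 in KO, 48523 to 99724 in WT). WT replicate 5 had the highest acute phase mean (centred log2 1.43) and then came WT replicate 6 (1.14) and KO replicate 4 (0.82), while WT replicate 3 had -0.30. Of 10 sinusoidal endothelial markers 9 were above 0 (3716 to 4089 in KO, 2963 to 4127 in WT), and WT replicate 5 had the lowest mean (-0.26). Stellate cell markers were below 0 in 7 of 10, muscle markers in 7 of 7, T and NK cell markers in 5 of 10, cholangiocyte and fat cell markers in 3 of 6 each and erythroid markers in 2 of 5. No marker of any of these lists was at 0 on any array or passed the adjusted threshold. Their part in the values of the subunit genes was not tested.

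No gene of the rest of the pathway passed the adjusted threshold either. Of 31 measured assembly factors, which build the complexes, 23 were above 0 with a median log2 fold change of 0.023, and 0 had an unadjusted p under 0.05 with limma. Those with the smallest p were Atpaf2, which helps to assemble the ATP synthase head (224 ± 14.4 in KO and 204 ± 19.5 in WT), Hccs, which attaches haem to cytochrome c (399 ± 30.9 in KO and 364 ± 24.7 in WT) and Cox16 (1836 ± 60.7 in KO and 1743 ± 73.7 in WT), all as mean intensity with SD, n = 6 each. Of 18 other subunits, isoforms of other tissues and associated proteins 7 were above 0 (median -0.017), and 5 of them lay below the array median. The smallest p among them was that of Cox7b2, with an intensity of 8.03 ± 3.24 in KO and 12.5 ± 4.47 in WT, close to background, followed by Higd1a (log2 fold change 0.078) and Cox8b (0.086).

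Complex I, the NADH dehydrogenase that was not among the chosen genes, had a median of 0.039 with 29 of 36 subunits above 0, and 1 of 36, Ndufa9, had an unadjusted p under 0.05 (0.0424; limma adjusted p = 0.785). It was followed by Ndufb5 (log2 fold change 0.083) and Ndufa7 (0.069). The tricarboxylic acid cycle had a median of 0.052 with 11 of 14 above 0, and Idh2 (0.23) and Idh3a (0.17) had unadjusted p under 0.05 (adjusted p = 0.748 for both), with Idh3b (0.097) next. Among 15 regulators of respiratory genes 10 were above 0 (median 0.016). Tfb2m, a factor of mitochondrial transcription, was the only one with an unadjusted p under 0.05 and gave 0.13 (limma adjusted p = 0.774), Tfam, which packs mitochondrial DNA, 0.11 and Yy1 0.084.

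Probe sets of one gene give a second view of the same animals. Of the 36 genes 23 had several, 71 probe sets in all with the single ones. Signs disagreed for 13 of 23, and for 7 of the 19 with several probe sets of mean intensity 100 or more. For 7 of the 36 the chosen probe set is of a kind that can bind other transcripts, by the suffix of its name: Uqcrq, Cox5b, Atp5c1, Atp5d, Atp5e, Atp5f1 and Atp5j2. In the authors' deposited table the fold change of the chosen probe sets ran from -1.04 (Cox5a) to 1.07 (Sdha), and 0 of 36 had a P under 0.05, where 1.98% of all genes did. Among these 36 chosen probe sets the smallest P in the authors' deposited table was 0.0750, for Cyc1.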

How the data were processed

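RNA from 12 livers (6 Sirt4 KO, 6 WT) was read on Affymetrix arrays. Per the submitters' processing notes RMA was used, with no version given. The authors deposited linear intensity values for 45037 probe sets, already brought to a common level (array medians 36.6 to 38.69), with 689 values of exactly 0. RMA gives values on a log2 scale, so linear values with zeros do not follow from it alone, and how these were scaled is not known; fold changes therefore hold for the deposited scale with the offset. A second deposited table held the same values. The authors also deposited p-values, and a signed fold change (a score) per probe set. The array files and labels name no genome build; the promoter coordinates are those of RefSeq's GRCm38.p6.

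A probe set was named by its own gene number or, failing that, by its accession through RefSeq; 37306 had 1 gene, 1285 several and 6446 none. Each of 18023 genes was read from its brightest probe set, by the mean of all 12 arrays. An offset of 50 was added before log2, and limma (version 3.58.1, R 4.3.3) was run over all genes with lmFit, eBayes and a Benjamini-Hochberg adjusted p under 0.05, checked on simulated data. The fit was KO against WT with no other term. The exact two-sided permutation test ran over all 924 arrangements of the 12 animals, and its smallest possible p is 0.00216. No value was dropped or imputed.

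The genes, the other gene lists and the alternatives were chosen with earlier results of these data known. Fully described genes were, by rule, those of each complex with the smallest unadjusted p (2, 3, 4 and 5 for complexes II to V) and the one nearest 0, plus Cycs; of each further pathway list the 3 with the smallest p. Limma p-values set a difference of means against the spread between these animals, 1 array each, moderated over all genes. Permutation p-values rank that difference among the arrangements of the animals, and neither tests the spread itself. Promoter sequences are RefSeq's, and no genome or protein sequence was used. Bright genes are those at least as bright as the dimmest of the 36, a background chosen after seeing the data.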

Additional observations from a re-analysis of the deposited data

Results flagged for a closer look

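Among the 72 groups of 6 animals (36 genes, 2 genotypes), 4 had 1 animal far from the other 5, judged by the gap to its nearest neighbour as a share of the group's range; chance alone gives about 1 in 20 groups. Sdhc, a membrane anchor of complex II, had its lowest KO intensity at 1412 in replicate 6, the gap being 0.696 of the range. Cyc1, cytochrome c1, had its lowest WT intensity at 3891 in replicate 5, with a share of 0.849. Atp5a1, the alpha subunit of complex V, had its highest KO intensity at 6597 in replicate 5 (0.642). Atp5o, the oligomycin sensitivity protein, had its lowest KO intensity at 2844 in replicate 1 (0.775).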

How the results depend on the processing

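No gene of complexes II to V was called in any of the 24 alternative fits, 12 that left out 1 animal and 12 others, nor with the authors' deposited P; their lowest adjusted p (limma) over those fits was 0.676. Genes of the 36 with an unadjusted p under 0.05 numbered 0 to 1 when 1 animal was left out, the 1 being Sdha without WT replicate 3. Genes called over all genes numbered 0, against 1, with an offset of 16, a floor of 10, a term for the title series, the 7200 series only and without WT replicates 5 and 6, and 0 to 1 when 1 animal was left out. Sirt4 was not called with an offset of 16 (-0.65), a floor of 10 (-0.73), a term for the title series (-0.50), the 7200 series only (-0.58) or without WT replicates 5 and 6 (-0.53), and gave -0.56 to -0.48 when 1 animal was left out. Centring arrays made 60.1% of the genes with unadjusted p under 0.05 higher in KO, and a minimum mean intensity of 100 made 69.6% so, against 49.9%. Small fold changes turned sign in at least 1 fit for 25 of the 36 genes, with sizes up to 0.086, none called. The largest came from a dim probe set of Atp5c1. The log2 fold changes that turned sign are given next. After quantile normalization they were Uqcrc1 -0.0020, Uqcrc2 -0.0028, Ndufa4 -0.018, Cox5b -0.00031, Cox7c -0.012, Atp5l -0.0028, Atp5o -0.015. With arrays centred on their medians they were Cox6a1 0.0059, Atp5h 0.0060, Atp5j 0.0069, Atp5j2 0.0073. With the mean of all probe sets they were Uqcrq -0.0020, Cycs 0.0083, Cox8a -0.015, Atp5a1 -0.011, Atp5c1 -0.029, Atp5h 0.016. With the second brightest probe set they were Uqcrq -0.044, Cycs 0.029, Cox5a 0.048, Cox6c -0.032, Cox7a2 -0.0068, Atp5c1 -0.086, Atp5g1 -0.0099, Atp5h 0.033. Of these probe sets some were dim, with mean intensities of 193 (Uqcrq), 61.5 (Cycs), 42.6 (Atp5c1) and 9.3 (Atp5g1), against array medians of 36.6 to 38.69. With a term for the title series they were Uqcrc1 -0.0049, Cox5b -0.015, Atp5h 0.013, Atp5k -0.0023, Atp5l -0.0021. In the 7200 series only they were Uqcrfs1 -0.0032, Cox5b -0.034, Cox7a2 -0.0045, Cox7c -0.035, Atp5h 0.021, Atp5j 0.00031, Atp5j2 0.0093, Atp5k -0.030, Atp5l -0.0023, Atp5o -0.020. Without the 3 KO arrays with -2 in the title they were Sdhc 0.047, Uqcrh 0.0061, Cycs 0.029, Ndufa4 -0.010, Cox7c -0.013, Atp5h 0.0082. Without WT replicates 5 and 6 they were Uqcrc1 -0.0048, Uqcrc2 -0.0065, Cox6a1 0.0089, Cox7c -0.0029, Atp5j2 0.0095, Atp5o -0.035. Leaving out 1 animal at a time gave ranges of Sdhc -0.047 to 0.035, Uqcrc1 -0.0061 to 0.039, Uqcrq -0.0067 to 0.058, Cycs -0.050 to 0.022, Ndufa4 -0.014 to 0.020, Cox5b -0.0075 to 0.036, Cox6a1 -0.011 to 0.012, Cox7c -0.0094 to 0.030, Atp5e -0.029 to 0.0051, Atp5h -0.011 to 0.015, Atp5j -0.013 to 0.012, Atp5j2 -0.011 to 0.0099, Atp5k -0.0061 to 0.069, Atp5l -0.0058 to 0.030, Atp5o -0.012 to 0.026. The cause was not tested. The median over the 36 genes ran from 0.0084 to 0.033 over the alternatives. No paired analysis was possible because the labels give no replicate numbers that tie a KO to a WT animal. With 6 arrays a group, each 95% interval in the report holds for 1 gene on its chosen probe set in the main fit. Probe sets of one gene that disagree limit single values.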
